A study of Rattus norvegicus with 2 samples.

Results

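The genes described here are 42 genes that a cell uses to condense, attach, separate and partition its chromosomes in mitosis, with the regulators that drive it into and out of that state. They were taken by symbol, and 41 of the 42 were found among the 32623 genes of the deposited tables. Ccnb2, which encodes cyclin B2, had no symbol match and its level is not analysed here. The data come from Rattus norvegicus microglia sorted by flow cytometry from the embryonic hippocampus at gestational day 20. One library, dexamethasone, came from embryos exposed before birth to this synthetic glucocorticoid, and 1 library, control, came from embryos without that exposure. Each library was a pool of 7 male embryos, so embryos cannot be told apart and no difference between the libraries could be tested. The labels give no dose, route, exposure days or vehicle.

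Microglia are the resident macrophages of the brain parenchyma, and in the embryo they expand by dividing in place after their precursors arrive from the yolk sac. Entry into mitosis is driven by Cdk1 bound to cyclins A2, B1 and B2. Aurora and Polo-like kinases then build the spindle, and kinetochores on the centromeres capture its microtubules under the watch of a checkpoint. Once every chromosome is attached, Cdc20 switches on the anaphase-promoting complex, a ubiquitin ligase that has cyclin B1 and securin destroyed, and the cell is split by the central spindle and a contractile ring. The transcripts of most of these genes start to accumulate in late S phase or G2 and peak in mitosis.

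Unique molecular identifiers (UMIs), which mark single captured transcripts, totalled 42611920 in 4328 dexamethasone barcodes and 69940778 in 8342 control barcodes. After filters 4198 dexamethasone and 8044 control cells were left, with a median of 8988 and 7621.5 UMIs, and 5 barcodes were present in both libraries. Cells were clustered without cell-cycle genes and classes were rebuilt from markers, so a class is called by resemblance. Microglia-like cells were 69.2% of dexamethasone and 73.9% of control cells (2904 and 5945 cells), and their UMIs included the defining markers P2ry12, Tmem119, Cx3cr1 and Sall1, while Siglech was at 0 CPM in both libraries. Border-associated-macrophage-like cells, named after the macrophages of the meninges and vessels, numbered 510 and 1065. Their summed microglia markers were as high as those of microglia-like cells, at 16496.5 and 15336 CPM against 15823 and 14851.5 CPM. Much of these sums was C1qa, at 9253 and 6949 CPM against 7881 and 5576 CPM. Single markers differed, with Sall1 at 78.9 and 101 CPM against 201 and 204 CPM. Granulocyte- and monocyte-like cells numbered 101 and 134, erythroid-like cells 102 and 131, and neuron-like cells 121 and 504. Unnamed cells, nearly all of 1 cluster led by ribosomal protein genes, were 10.8% of dexamethasone and 2.80% of control cells. The rule that left that cluster unnamed was set after the data were seen. It is also called the low-depth cluster below, with a median of 6608 UMIs in dexamethasone and 1101 UMIs in control. With 1 library per group no test was made, and all intervals are exact 95% intervals of counting error only. Intervals of CPM, of UMI ratios and of shares of UMIs take each UMI as independent. UMIs of the same cell are not, so these intervals leave out the spread between cells and are too narrow.

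Promoters of the members are shown first, because the letters that many cell-cycle promoters share were present in most of them. RefSeq promoters of the GRCr8 assembly, from 250 bases before to 50 bases after the transcription start, were found for 36 of the 42 members. The expression files use the older Rnor_6.0 assembly, so these coordinates belong to GRCr8 alone. The 6 members with no entry were Ccna2, Ube2c, Tpx2, Aurkb, Pimreg and Sgo2. Each promoter was searched on both strands for the core of the cell-cycle genes homology region (CHR), written TTTGAA or TTCGAA, and for CCAAT, the box bound by the factor NF-Y. The CHR is known as a binding element of the DREAM complex, which holds such genes silent in resting cells, and of MuvB with B-Myb, which takes part in their activation.

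The 150 bases before the start of 6 members follow, 5′ to 3′ on the strand of the gene, with whole matches to either motif in capitals. ATTGG is CCAAT read on the other strand, and TTCAAA is TTTGAA read on the other strand. Cdk1 (chr20:19265143-19265292, plus strand) and Top2a (chr10:84473094-84473243, minus strand) stand for the early list, and Cdc20 (chr5:137255800-137255949, minus strand), Pttg1 (chr10:28406327-28406476, minus strand) and Hmmr (chr10:25665216-25665365, minus strand) for the late list, all with both motifs. Ccnb1 (chr2:33655226-33655375, minus strand) is shown as a late gene with CCAAT matches and no CHR match in this window.
Cdk1: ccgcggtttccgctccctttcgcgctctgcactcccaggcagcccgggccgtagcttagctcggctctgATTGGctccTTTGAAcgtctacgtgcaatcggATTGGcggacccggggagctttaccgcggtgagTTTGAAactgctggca
Top2a: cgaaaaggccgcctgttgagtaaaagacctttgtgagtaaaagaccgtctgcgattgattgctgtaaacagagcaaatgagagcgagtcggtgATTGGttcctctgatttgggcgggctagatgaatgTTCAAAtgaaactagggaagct
Cdc20: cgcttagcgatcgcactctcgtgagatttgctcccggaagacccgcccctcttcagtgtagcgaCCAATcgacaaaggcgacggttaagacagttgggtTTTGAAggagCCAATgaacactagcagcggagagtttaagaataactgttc
Pttg1: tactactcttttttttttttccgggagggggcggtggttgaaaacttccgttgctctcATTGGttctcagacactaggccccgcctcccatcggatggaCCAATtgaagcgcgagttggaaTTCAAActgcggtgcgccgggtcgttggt
Hmmr: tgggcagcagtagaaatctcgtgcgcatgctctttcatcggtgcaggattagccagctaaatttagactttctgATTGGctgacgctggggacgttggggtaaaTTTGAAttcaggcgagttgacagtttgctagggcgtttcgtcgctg
Ccnb1: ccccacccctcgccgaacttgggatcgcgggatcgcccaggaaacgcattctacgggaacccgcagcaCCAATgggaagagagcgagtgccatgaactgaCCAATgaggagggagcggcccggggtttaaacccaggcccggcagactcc

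A CHR core was present in 29 of the 36 promoters (80.6%), against 19.7% of all 33469 promoters in the same table. CCAAT was present in 26 of 36 (72.2%), against 37.5% of all promoters, and both motifs in 22 of 36 (61.1%), against 7.95%. Of 72 pairs of a CHR and a CCAAT match in the same promoter, 1 overlapped. By list, a CHR core was found in 9 of 10 early, 13 of 19 late and 7 of 7 other promoters. The CHR matches lay close to the start. From 60 bases before to 50 bases after it, 23 of 36 members (63.9%) had a match, against 6.33% of all promoters. These are matches of letters, and nothing was measured here of what binds them.

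**Figure D1:**
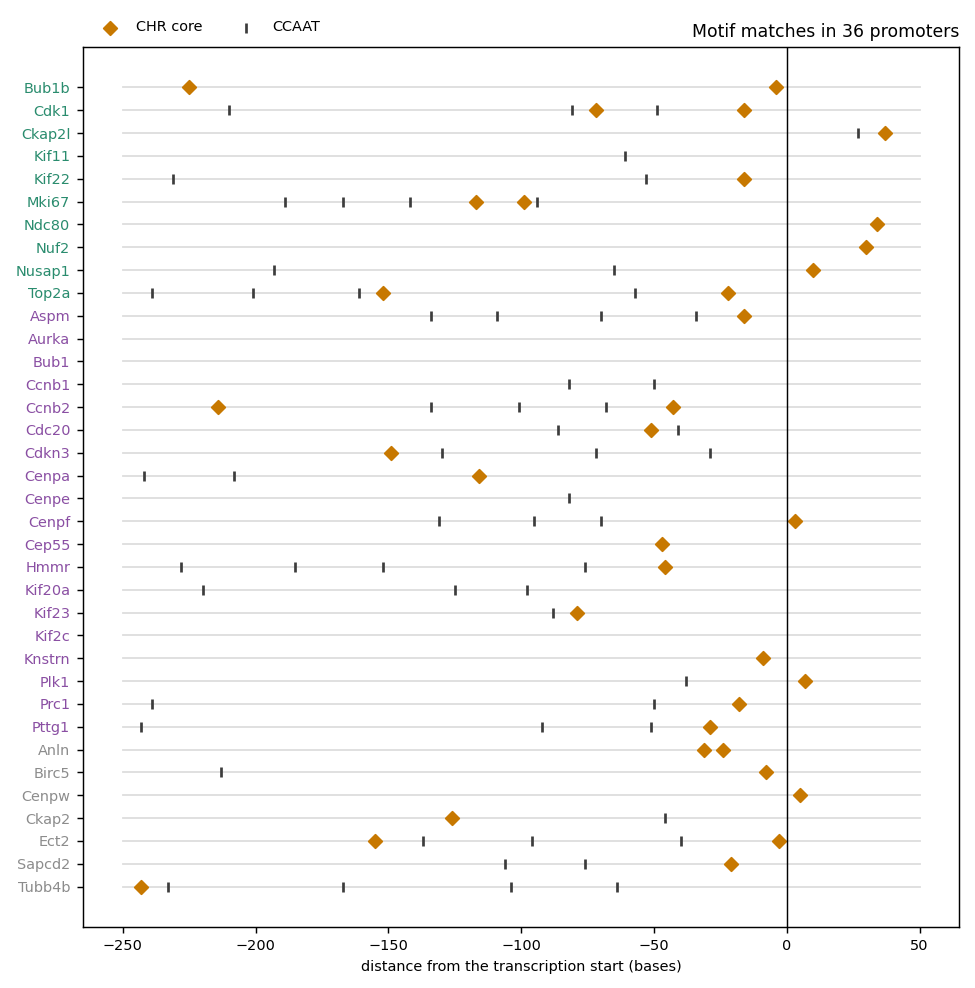
Positions of CHR core (diamonds) and CCAAT (bars) matches in the RefSeq GRCr8 promoters of 36 members, with the distance from the transcription start on the x axis in bases and early, late and other names in green, purple and grey. Most CHR matches sit within 60 bases before to 50 bases after the start, in 23 of 36 members.

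The members separated cells into a large group with almost none of them and a smaller one with many. To remove depth, each cell was thinned at random to 4200 UMIs and shallower cells were left out, 140 dexamethasone and 552 control microglia-like cells. Of 2764 dexamethasone and 5393 control microglia-like cells, 43.5% and 38.2% had no UMI from any of the 40 members counted (all matched members but Tubb4b), and 30.03% and 33.65% had UMIs from 1 or 2. At the other end 15.3% and 16.3% had UMIs from 10 or more, and up to 35 members were seen in 1 cell of each library. The range of 5 to 9 members, nearest to the threshold used below, held 5.21% of dexamethasone and 5.71% of control cells.

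A cell with UMIs from at least 5 members was called dividing. Tubb4b, a beta-tubulin of the spindle microtubules, was left out of the call because it was also seen in 32.0% of the neuron-like cells that were not dividing. Called cells held nearly all the UMIs of the 40 counted members in the microglia-like class. This follows in part from the call, which was made on the same members. The share of those UMIs in called cells was 91.8% in dexamethasone and 92.2% in control. A dividing microglia-like cell carried a mean of 37.1 such UMIs in dexamethasone and 38.8 in control, whereas other cells carried 0.857 and 0.927. Dividing cells were also the deeper ones before thinning, with a median of 10630 against 9256.5 UMIs in dexamethasone and 10180.5 against 8028 UMIs in control.

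**Figure D2:**
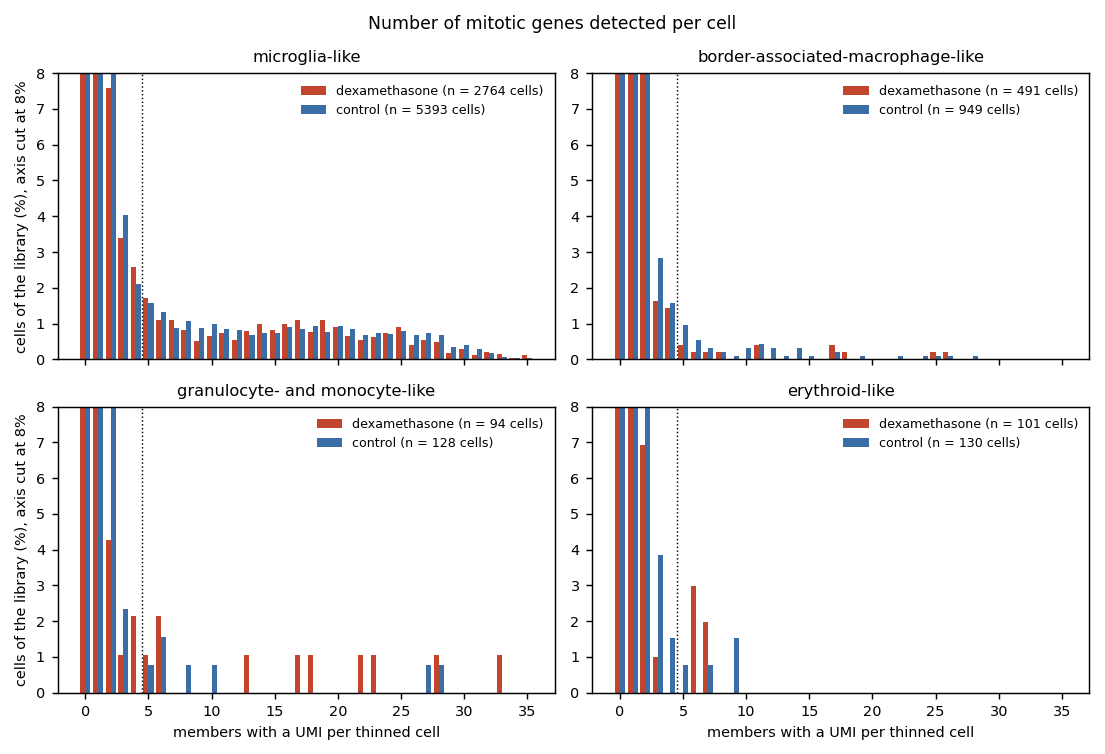
Percent of cells of a library (y axis, drawn only up to 8%) by the number of members with a UMI in a cell thinned to 4200 UMIs (x axis), in 4 classes, with dexamethasone in red and control in blue. The dotted line marks the threshold of 5 members, and microglia-like cells form a broad second group that reaches 35 members, while erythroid-like cells reach 9.

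Microglia-like cells held the highest share of dividing cells of the 5 classes in both libraries under the cell filters used here. After thinning, 20.5% of dexamethasone microglia-like cells (566 of 2764, 18.99 to 22.03%) and 22.0% of control ones (1188 of 5393, 20.9 to 23.2%) were dividing. The difference was -1.55 percentage points (-3.42 to 0.35), so the interval included 0. Unthinned, the shares were 26.6% and 27.0%. The lower dexamethasone share kept its direction in all 10 alternatives run, between -3.39 and -0.36 points, with an interval below 0 in 6 of them. Among these, counting the unnamed ribosomal cluster as microglia-like gave -2.72 points (-4.45 to -0.97). Stricter cell filters gave -3.39 points (-5.19 to -1.57), and a finer clustering gave -3.07 points (-5.17 to -0.94). Whether the interval included 0 thus depended on several such choices. With stricter cell filters the dexamethasone share was 19.2%, below the 25% of the 20 erythroid-like cells then left. Median depth before thinning was 9256.5 UMIs in dexamethasone and 7967 in control microglia-like cells.

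Erythroid-like cells were set beside the others as a class in which many cells should lack these transcripts, since maturing red cells leave the cell cycle. Over the whole class the shares were 4.95% in dexamethasone (5 of 101, 1.63 to 11.2%) and 3.08% in control (4 of 130, 0.845 to 7.69%). All of the dividing ones had at least 500 genes, 5 of 20 such cells in dexamethasone and 4 of 66 in control. None of 81 dexamethasone and none of 64 control cells with under 500 genes was dividing, 0 cells each. The exact intervals allow shares of up to 4.45% and 5.60%. A cell with few genes can show few members, and haemoglobin made up 60.3% and 67.2% of the UMIs of these cells, so that count of 0 is no measure of background in other classes. Unthinned, the shares of the whole class were 6.86% and 18.3%, and with thinning outside the haemoglobin genes 5.21% and 11.8%. The order of the libraries thus depended on how depth and haemoglobin were treated. No erythroid-like cell reached 10 members. The few dividing ones carried microglia markers at 2762 and 2381 CPM (counts of UMIs scaled to the group's total), against 769 and 731 CPM in the others, and a contribution of doublets or free RNA was not tested.

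Border-associated-macrophage-like cells were seldom dividing, and their share depended on how the class was drawn. It was 2.44% in dexamethasone (12 of 491, 1.27 to 4.23%) and 4.53% in control (43 of 949, 3.30 to 6.06%), a difference of -2.09 points (-4.01 to 0.083). Both intervals overlapped those of the erythroid-like class, but the dividing cells carried more members. Of them 7 in dexamethasone and 23 in control had 10 or more members, with up to 26 and 28 in a cell, and they held a mean of 26.5 and 21.7 member UMIs, against 9 and 12.25 in the dividing erythroid-like cells. Cells too shallow to thin were 19 and 116. Unthinned, the shares were 6.47% and 7.79%. The dividing cells kept the class markers, at 5060 CPM against 5857 CPM in the other dexamethasone cells and 6224 CPM against 7489 CPM in the other control cells. Those markers summed to 1313 and 1404 CPM in dividing microglia-like cells. Summed microglia markers did not set these classes apart, at 14067.5 and 13189 CPM in dividing border-associated-macrophage-like cells and 13054 and 12512 CPM in dividing microglia-like cells. Single markers did not all follow the sum. In the same order, C1qa was at 7857 and 5903 CPM against 6241 and 4506 CPM. Tmem119 was at 39.7 and 38.8 CPM against 71.1 and 72.8 CPM, and P2ry12 at 198 and 138 CPM against 170 and 202 CPM. The part of doublets was not tested. When cell-cycle genes were kept in the clustering the shares were 0.671% and 0.791%, and when cells were gated by marker UMIs, a choice made after seeing the data, they were 13.04% and 16.52%. Under each of these choices the microglia-like share was higher than the border-associated-macrophage-like share in both libraries.

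Granulocyte- and monocyte-like cells included 10 dividing of 94 in dexamethasone (10.6%, 5.22 to 18.7%) and 7 dividing of 128 in control (5.47%, 2.23 to 10.9%). The difference was 5.17 points (-2.53 to 13.9), with an interval that included 0, and 7 and 6 cells were too shallow to thin. Unthinned, the shares were 13.9% and 6.72%. Granulocyte and monocyte markers summed to 60905 CPM in the dividing and 64152 CPM in the other dexamethasone cells, against 9388 CPM and 24553 CPM in control. The antimicrobial peptide gene Camp, a marker of late granulocyte precursors, was seen in 1 of the 10 dividing dexamethasone cells and 1 of the 7 dividing control cells. The dividing cells of this class were deep, with a median of 20235.5 and 15767 UMIs against 10989.5 and 9334 in the others. Microglia markers were at 4214 and 6054 CPM in them, against 4368 and 5155 CPM in the others. By count, a median of 3 microglia markers had a UMI in both the dividing and the other dexamethasone cells. In control the median was 8 in the dividing and 3 in the other cells, and it was 8 in dividing microglia-like cells. The part of doublets was not tested.

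Neuron-like cells, which a microglia sort should have removed, held 8 dividing of 69 dexamethasone cells (11.6%) and 25 dividing of 189 control cells (13.2%), with 52 and 315 cells too shallow to thin. These dividing cells had less of the neuron markers, 6161 and 4076 CPM against 16343 and 14451 CPM in the other neuron-like cells. Without Stmn1 these sums were 1726 and 1200 CPM against 8212 and 7522 CPM. Stmn1 was also higher in dividing than in other microglia-like cells, at 1151 and 1082 CPM against 149 and 177 CPM. In neuron-like cells, markers of neural progenitors and astroglia summed to 655 CPM in the dividing and 695 CPM in the other dexamethasone cells. In control they summed to 1486 CPM and 354 CPM. Among them the transcription factor Sox2 was at 238 CPM in the dividing and 97.6 CPM in the other dexamethasone cells, and at 257 CPM and 50.8 CPM in control. Fabp7, a fatty acid binding protein of radial glia, was at 238 CPM in the dividing and 437 CPM in the other dexamethasone cells, and at 800.0 CPM and 203 CPM in control. Microglia markers stood at 3185 CPM in the dividing and 2791 CPM in the other dexamethasone cells, and at 7781 CPM and 4540 CPM in control, and the part of doublets was not tested.

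**Figure D3:**
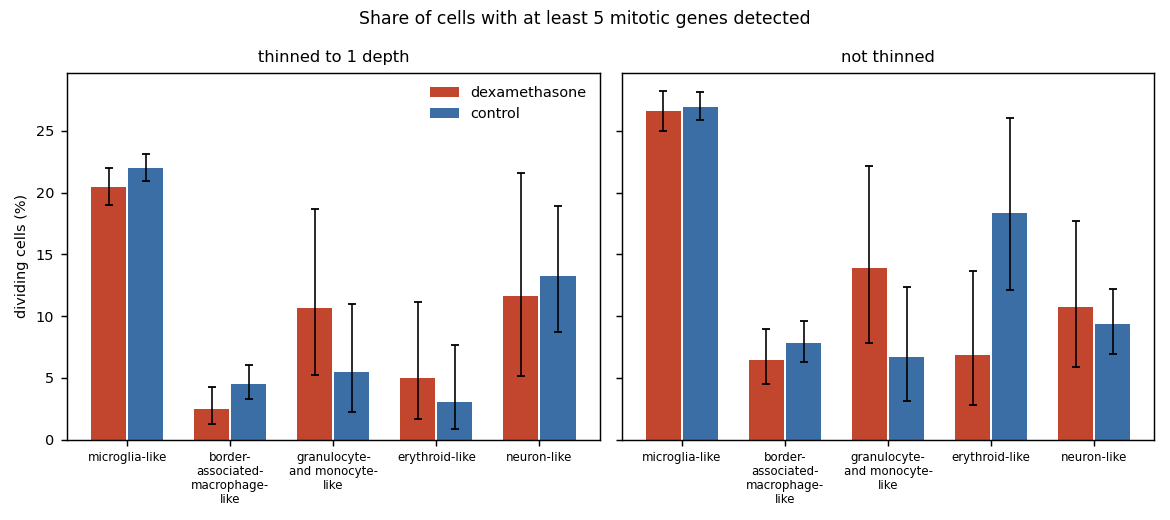
Share of cells called dividing (y axis, percent) in 5 classes, dexamethasone in red and control in blue, after thinning (left) and without it (right), with exact binomial 95% intervals as bars. Microglia-like cells stand at 20.5% and 22.0% after thinning, and the control erythroid-like share changes most between the panels.

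The order in which members appear was read within microglia-like cells, by sorting thinned cells on S phase UMIs (at least 10 from a list of 40 genes such as Mcm5 and Pcna) and on late members (at least 5 of 21, leaving out the gene being described). A cell in the S phase bin alone was taken to stand before mitosis, and a cell in the late bin alone in G2 or mitosis. For each member its level in the first bin was taken as a percent of its level in the second. Both libraries were combined for this measure, and it compares a gene only with itself. As a check of the bins, the replication genes Mcm5 and Pcna stood at 869% and 558%.

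Genes listed as early had more of their late level already in S phase cells than genes listed as late. The lists came from textbook knowledge, but with earlier results of these data known, so they are not independent of the data. The median was 12.6% for the 11 early members, 5.94% for the 21 late members and 10.8% for the 9 others. Since the late list sorts the cells here, it is low in the S phase bin in part by construction. Other sorts, chosen after seeing the data, did without it. When the late bin was made from the early list (at least 3 of 11), the medians were 7.34% for early, 3.38% for late and 6.74% for other members. Each list was thus lower than in the first sort. When the late bin was made from 8 of the other members (at least 2), the medians were 13.9% for early and 7.01% for late members. Early members ran from 5.72 to 23.6%. Cdk1, the mitotic kinase, was at 59.1 CPM in S phase cells and 251 CPM in late cells, or 23.6%. Mki67, which encodes the Ki-67 coat protein of mitotic chromosomes, stood at 19.3%, Ndc80 of the outer kinetochore at 21.5% and Ccna2, the S phase and G2 cyclin, at 17.5%.

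The lowest values included genes of the exit from mitosis. Ube2c, the ubiquitin-conjugating enzyme of the anaphase-promoting complex, was at 18.8 CPM in S phase cells and 664 CPM in late cells, or 2.83%. Its activator Cdc20 stood at 2.99%, the kinetochore protein Cenpf at 3.02%, cyclin B1 (Ccnb1) at 3.30% and Pttg1, the securin that guards cohesin, at 3.70%. These genes had little of their late level in S phase cells, and Pttg1 was higher in cells of neither bin, at 28.7 CPM, than in S phase cells, at 19.01 CPM. The 10 lowest members were all from the late list.

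The lists overlapped. Among the 11 highest members 5 were early, 2 late and 4 other. Aurka, the centrosome kinase listed as late, was highest at 33.1%, with 32.9 CPM even in cells of neither bin, and stood at 13.2% once that level was subtracted from both bins, an alternative chosen after seeing the data. Cenpa, the histone variant of centromeres, was at 19.4% and at 14.4% after subtraction. Nusap1, a microtubule-bundling protein listed as early, was at 5.72%, below most early members. Top2a, the topoisomerase that untangles sister chromatids, was at 8.09% but was highest in cells positive for both sets, with 1162 CPM against 926 CPM in late cells. Aurkb, the kinase of the chromosomal passenger complex, was likewise at 129 CPM there and 80.1 CPM in late cells.

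Each library alone gave a value for every member. Of the 5 members with most UMIs, Mki67 stood at 20.4% in the dexamethasone and 18.8% in the control library, Cenpf at 2.84% and 3.16%, Top2a at 9.06% and 7.48%, Tubb4b at 6.55% and 8.46%, and Ube2c at 2.77% and 2.86%. Cdk1 was at 23.7% and 23.2%, whereas Ccnb1 was at 4.42% and 2.58%. Among members with fewer UMIs, the libraries gave values as far apart as those of the checkpoint kinase gene Bub1b at 18.8% and 9.98% and the chromokinesin gene Kif22 at 5.37% and 11.5%.

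**Figure D4:**
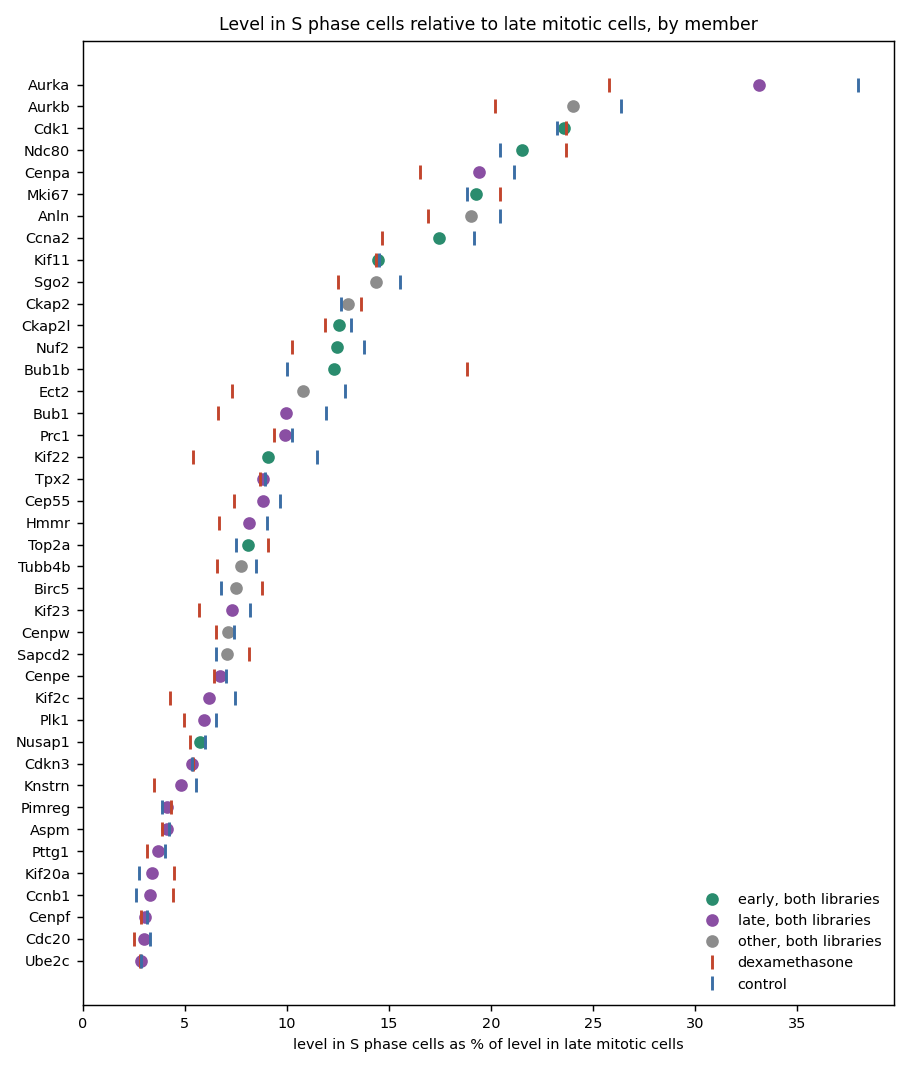
Level of each of 41 members in S phase cells as a percent of its level in late cells (x axis), in microglia-like cells of both libraries together (circles, by list) and in the dexamethasone and control library alone (red and blue ticks). Early members have a median of 12.6% and late members of 5.94%, with Aurka and Cenpa as late-listed genes at the high end.

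The libraries differed slightly in where microglia-like cells stood in this order. S phase cells without late members were 14.9% of dexamethasone (13.6 to 16.3%) and 12.6% of control cells (11.7 to 13.5%). Cells positive for both sets were 5.43% and 6.10%, and late cells 9.70% (8.62 to 10.9%) and 10.7% (9.87 to 11.5%). The S phase share was thus higher and the late share lower in dexamethasone, the first beyond counting error. Within dividing cells, late members made up 58.0% of early and late UMIs in dexamethasone (57.2 to 58.7%) and 58.8% in control (58.3 to 59.3%). Cells with more late than early UMIs were 57.4% (325 of 566) and 60.8% (722 of 1188) of dividing cells, with overlapping intervals.

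Summed over all microglia-like cells, the members' UMIs gave 2267 CPM in dexamethasone and 2698 CPM in control, a log2 ratio of -0.25 (-0.26 to -0.24). All 41 had at least 100 UMIs. Dexamethasone was lower for 37 and higher for 4, with a median log2 ratio of -0.22, beside 0.0074 over all 10494 genes of that depth. A log2 ratio of 0.32 or more in size was the threshold of size used here. It was reached downwards by 10 members, where 7.58% of all genes reached it, and upwards by 0, where 9.51% did. The microglia-like cells of the dexamethasone library also had 3.19% of UMIs from mitochondrial genes, against 5.98% in control, and 14.8% from ribosomal protein genes, against 13.2%. Without those genes in the total the median was -0.24.

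The size of this difference depended on which cells and which mean were used, while its direction did not. With the unnamed ribosomal cluster counted as microglia-like, the median was -0.34 and 22 members passed the threshold, where 9.12% of all genes did. Stricter cell filters gave 23 (8.74% of all genes), clusters made with cell-cycle genes 22 (9.13%), and a finer clustering 20 (8.26%). As a mean of per-cell CPM, in which deep cells weigh no more than shallow ones, the median was -0.11 and 2 members passed (8.70% of all genes). No member reached a fold of 1.5.

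The drivers of mitotic entry were among the least different members. Cdk1 was at 60.3 CPM (57.5 to 63.1) in dexamethasone and 57.3 CPM (55.3 to 59.3) in control, a log2 ratio of 0.07 (-0.01 to 0.16). Ccnb1 was at 65.0 and 67.7 CPM (-0.06), Ccna2 at 23.3 and 25.4 CPM (-0.13) and Cdkn3, a phosphatase that acts on Cdk proteins, at 46.9 and 49.9 CPM (-0.09). The intervals of all 4 ratios included 0.

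The mitotic kinases and their partner differed little as well. Aurkb was at 25.2 CPM in dexamethasone and 24.2 CPM in control (0.06), and Plk1, the Polo-like kinase, at 31.6 and 33.8 CPM (-0.10). Aurka was at 49.99 and 57.2 CPM, a log2 ratio of -0.19 (-0.28 to -0.10). Birc5, or survivin, which ties Aurkb to centromeres, was at 79.6 CPM (76.4 to 82.8) and 89.4 CPM (86.9 to 92.0), a log2 ratio of -0.17 (-0.24 to -0.10). Of these 4 genes Aurka and Birc5 were lower in dexamethasone beyond counting error.

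All 4 genes around the anaphase-promoting complex were lower in dexamethasone. Ube2c was at 98.6 CPM (95.1 to 102) in dexamethasone and 121 CPM (118 to 124) in control, a log2 ratio of -0.30 (-0.36 to -0.23). Pttg1 was at 80.1 and 99.7 CPM (-0.32, just short of the threshold) and Cdc20 at 37.8 and 45.8 CPM (-0.27). Pimreg, a mitotic gene also known as Fam64a, was at 14.6 and 16.2 CPM, with an interval of the ratio (-0.32 to 0.01) that included 0.

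Kinetochore and centromere genes had the lowest median of the role groups, -0.31 over 10 genes, and 5 of them passed the threshold downwards, where 7.58% of all genes did. Cenpe, the kinesin that moves chromosomes to the spindle equator, was at 57.9 CPM (55.2 to 60.7) in dexamethasone and 81.2 CPM (78.8 to 83.6) in control. Its log2 ratio of -0.49 (-0.57 to -0.41) was the lowest of all members. Cenpf was at 223 CPM (218 to 229) and 298 CPM (293 to 302), or -0.42.

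The other kinetochore genes followed the same direction with 1 exception. Bub1b was at 10.8 CPM (9.66 to 12.1) in dexamethasone and 14.4 CPM (13.4 to 15.4) in control (-0.41), and Ndc80 at 26.3 CPM (24.5 to 28.2) and 33.8 CPM (32.3 to 35.4), a log2 ratio of -0.36. Knstrn, an adaptor of kinetochore microtubules, was at 34.3 and 43.1 CPM (-0.33). Sgo2, the shugoshin that protects centromeric cohesin, was at 49.2 CPM (46.7 to 51.8) and 59.3 CPM (57.3 to 61.4), a log2 ratio of -0.27. Bub1, the checkpoint kinase, Cenpa and Nuf2, the partner of Ndc80, had ratios of -0.29, -0.22 and -0.20. Cenpw, a histone-fold protein of the inner kinetochore, was at 45.6 and 45.1 CPM (0.02).

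All 11 spindle genes were lower in dexamethasone and 3 of them passed the threshold, beside the 7.58% of all genes. Ckap2l, a spindle-pole protein, was at 17.4 CPM (15.97 to 18.998) in dexamethasone and 23.8 CPM (22.5 to 25.1) in control, a log2 ratio of -0.45 (-0.60 to -0.30). Hmmr, which organises spindle microtubules, was at 46.8 CPM (44.4 to 49.3) and 62.9 CPM (60.8 to 65.1), or -0.43. Aspm, a protein of spindle poles known for its role in brain size, was at 34.3 and 43.8 CPM (-0.35).

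Tubb4b was just short of the threshold, at 100.1 CPM (96.5 to 104) in dexamethasone and 125 CPM (122 to 128) in control, a log2 ratio that rounds to -0.32, and Kif22 at 34.7 and 43.1 CPM had -0.31. Tpx2, the activator of Aurka on the spindle, was at 80.0 and 93.1 CPM (-0.22), and Kif11, the motor that pushes spindle poles apart, at 29.8 and 34.3 CPM (-0.20). Nusap1 was at 75.8 CPM (72.7 to 78.9) and 80.2 CPM (77.8 to 82.6), a log2 ratio of -0.08. Ckap2, Sapcd2 and Kif2c, the last a kinesin that takes microtubules apart, were at -0.10, -0.14 and -0.07, with intervals that included 0.

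Among the cytokinesis genes Prc1, which bundles the central spindle, was at 82.3 CPM (79.1 to 85.6) in dexamethasone and 104 CPM (101.1 to 106.5) in control, a log2 ratio of -0.33. Kif23, its partner in the midzone, was at 14.1 and 18.2 CPM (-0.38), and Kif20a, another midzone kinesin, at 17.1 and 19.2 CPM (-0.17). The abscission gene Cep55 was at 17.2 and 16.8 CPM (0.03). Ect2, which activates RhoA for the contractile ring, and Anln, or anillin of that ring, had ratios of -0.05 and -0.06. Prc1 and Kif23 were thus past the threshold, and Cep55, Ect2 and Anln had intervals that included 0.

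The chromosome genes Mki67 and Top2a were both lower in dexamethasone without passing the threshold. Mki67 was at 296 CPM (289.9 to 302) in dexamethasone and 349 CPM (345 to 355) in control, a log2 ratio of -0.24. Top2a was at 183 CPM (178 to 188) and 222 CPM (218 to 226), a log2 ratio of -0.28.

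By stage, the median log2 ratio was -0.24 for the 11 early members, 3 of them past the threshold, -0.27 for the 21 late members, 7 past it, and -0.10 for the 9 others, with 0 past it, where 7.58% of all genes were. The sums were 785 and 915 CPM for the early list and 1113 and 1366 CPM for the late list, or -0.22 (-0.24 to -0.20) and -0.30 (-0.31 to -0.28). The ratio of the late sum was thus slightly lower than that of the early sum.

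**Figure D5:**
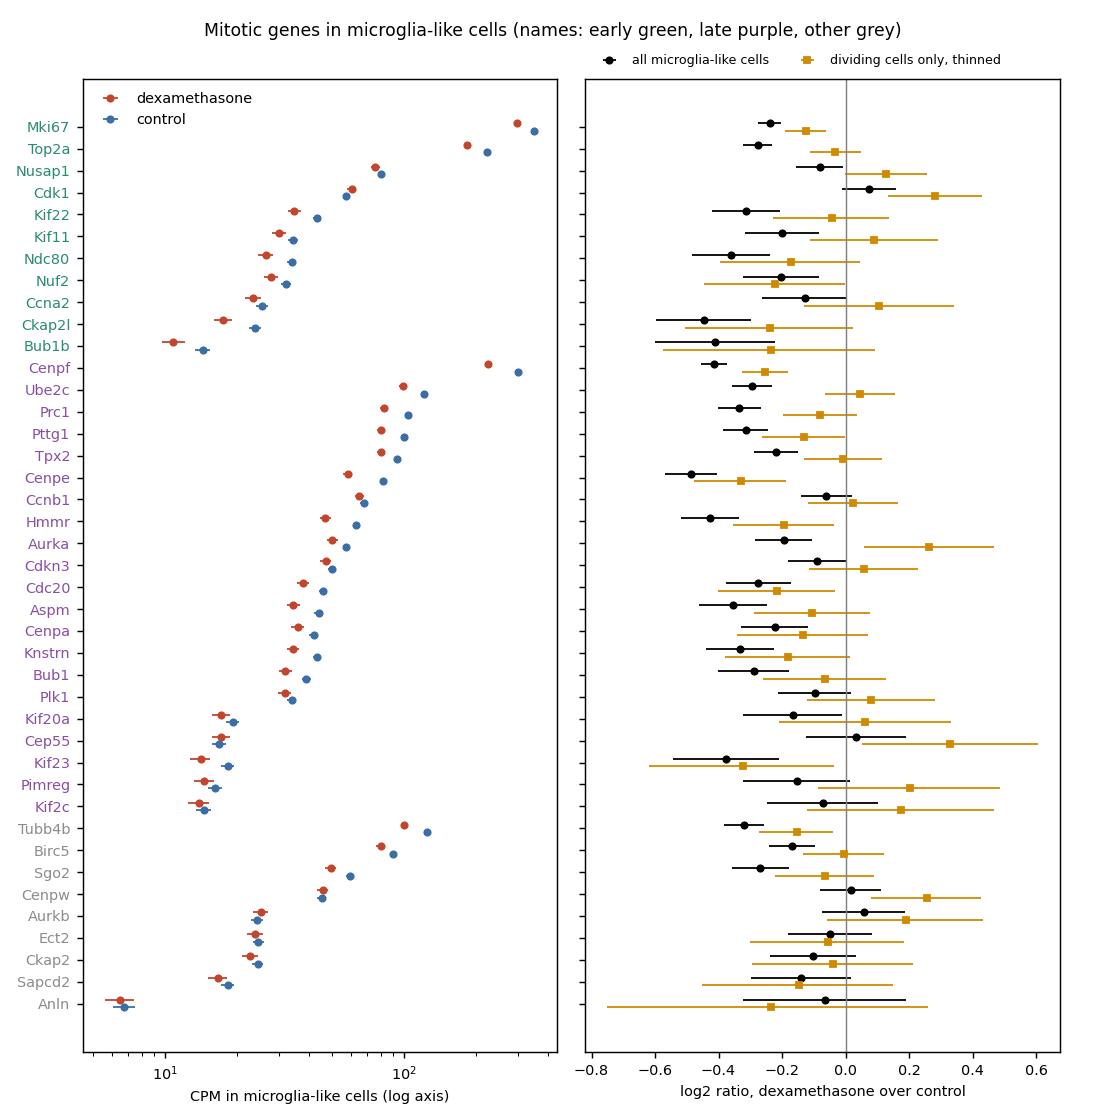
Left, CPM of each of 41 members in microglia-like cells of the dexamethasone (red) and control (blue) library on a log axis with exact Poisson 95% intervals. Right, log2 ratio of dexamethasone over control in all microglia-like cells (black circles) and in dividing cells only (orange squares) with 95% counting intervals, with 37 of 41 black circles and 26 of 41 orange squares below 0.

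The ratios were nearer to 0 in dividing cells than in all cells treated alike, which the call can bring about in part. In both libraries it picks cells for UMIs from at least 5 other members, which can make their levels more alike. How much of the move comes from this was not tested. With every microglia-like cell thinned to 4200 UMIs, dividing or not, the members' median log2 ratio was -0.15, with 33 lower and 8 higher. Within dividing microglia-like cells, each thinned to 4200 UMIs and called without the gene in question, 26 members were lower and 15 higher in dexamethasone. Their median log2 ratio was -0.06, beside -0.02 over all 6463 genes with at least 100 UMIs there. The threshold was reached downwards by 2 members, where 12% of all genes reached it, and upwards by 1, where 9.7% did. Without thinning the median was -0.15 in dividing cells, beside the -0.22 of all cells. Over all thinned microglia-like cells, dividing or not, a cell held a mean of 8.28 UMIs of the 40 counted members in dexamethasone and 9.27 in control.

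Within dividing cells 13 of 41 members differed beyond counting error of pooled UMIs, 9 of them lower and 4 higher in dexamethasone. That error leaves out the spread between cells. The share of all genes that differ by this measure was not counted, so the 13 cannot be called particular to the members. By the size threshold, 2 members were lower and 1 higher, where 12% and 9.7% of all genes were. Cenpe was seen in 49.0% of dividing dexamethasone and 55.8% of dividing control cells, at 230.0 and 289 CPM, a log2 ratio of -0.33 (-0.48 to -0.19). Kif23 was at 57.3 and 71.7 CPM (-0.32), and Cenpf, seen in 76.2% and 77.4% of cells, at 936 and 1116 CPM (-0.25). Mki67 was at 1247 and 1360 CPM, a log2 ratio of -0.13 (-0.19 to -0.06). The other lower members were Cdc20 (-0.22), Nuf2 (-0.22), Hmmr (-0.19), Tubb4b (-0.15) and Pttg1 (-0.13).

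The 4 others were higher in the dividing cells of the dexamethasone library. Cdk1 was seen in 55.1% of dexamethasone and 49.4% of control dividing cells, at 253 and 208 CPM, a log2 ratio of 0.28 (0.13 to 0.43). Cep55 was at 73.3 and 58.3 CPM (0.33), Aurka at 133 and 111 CPM (0.26) and Cenpw at 186 and 156 CPM (0.26). For Ccnb1, Ube2c, Top2a, Tpx2 and Birc5 the ratio lay between -0.03 and 0.05 with intervals that included 0.

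Other genes of the pathway were followed in a list of 53 measured mitotic genes that are no members. Of the 51 with at least 100 UMIs in microglia-like cells, 37 were lower and 14 higher in dexamethasone, 8 past the threshold downwards and 1 upwards, where 7.58% and 9.51% of all genes were, with a median log2 ratio of -0.09. Incenp, the scaffold of the Aurkb complex, was at 30.6 CPM in dexamethasone and 42.4 CPM in control (-0.47). Hjurp, which loads Cenpa, was at 2.34 and 3.19 CPM (-0.45), and Kif4a, a chromokinesin, at 24.4 and 32.6 CPM (-0.42).

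The pathway genes with most UMIs were nearly equal. Hmgb2, a chromatin protein abundant in cycling cells, was at 682 CPM in dexamethasone and 685 CPM in control (-0.01), Jpt1 at 337 and 348 CPM (-0.05) and Anp32e, a histone chaperone, at 149 and 154 CPM (-0.04). The 1 gene higher past the threshold was Wee1, the kinase that holds Cdk1 inactive, at 20.8 CPM in dexamethasone and 16.5 CPM in control, a log2 ratio of 0.34; it was named after its values were seen. The list of 40 S phase genes had a median log2 ratio of 0.02 and summed to 1489 and 1426 CPM (0.06).

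Outside microglia-like cells the members were thinly counted. In border-associated-macrophage-like cells they summed to 407 CPM in dexamethasone and 493 CPM in control, a log2 ratio of -0.28 (-0.36 to -0.20). The class was made of a pair of clusters in unlike shares. The smaller, led by Ccl24, Clec10a and Cd163, counted 13 cells out of 510 in dexamethasone and 154 out of 1065 in control. In the larger cluster alone the sums were 414 and 509 CPM, or -0.30 (-0.38 to -0.22). Over the whole class only 18 of 41 members had 100 UMIs, and these are not all members. The UMIs of both libraries are added for this, so a member high in 1 library passed more easily. Of the 18, 9 passed the threshold downwards, where 12.7% of all genes did, and 1 upwards, where 8.01% did. Top2a was at 12.6 CPM (62 UMIs) and 21.1 CPM (177 UMIs), and Mki67 at 64.9 and 84.1 CPM.

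In granulocyte- and monocyte-like cells the direction was the opposite one, but it rested on few cells. The members summed to 1713 CPM in dexamethasone and 857 CPM in control. Of the 10 members with 100 UMIs, which are not all members, 9 passed the threshold upwards, where 10.9% of all genes did. The filter adds the UMIs of both libraries, so a member high in dexamethasone passed it more easily. That count is thus no separate support for the direction. Mki67 was at 187 CPM (239 UMIs) and 69.3 CPM (103 UMIs). After thinning, the 3 cells richest in member UMIs held 49.7% of them in dexamethasone and 53.6% in control.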

How the data were processed

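Per the submitters' processing notes, the authors used Cell Ranger 7.0.0 and the assembly Rnor_6.0. The deposited matrices hold raw UMI counts, and how their barcodes were chosen is not given in the sources used here. Cells under 200 genes or over 20% mitochondrial UMIs were dropped. Scrublet called 1 doublet among 4199 dexamethasone cells (dropped) and 0 among 8044 control cells, so it did not work and doublets remain. Cells were clustered in scanpy 1.11.5 (2000 variable genes, 30 components, 15 neighbours, Leiden resolution 0.5) without cell-cycle genes. Clusters with 2 or more markers of another class among their top 25 genes by fold took its name, and the rest were microglia-like if 10 or more microglia markers stood at 0.6 or more of the median level. Clusters 4 and 6 of the microglia-like class were still led by cycling genes, so shares per cluster are not given.

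Counts were summed by class and library and scaled to CPM of that class. Ratios have exact conditional binomial, CPM exact Poisson and shares exact Clopper-Pearson intervals at 95%, and floors are 3 counts. Shares were taken after thinning to 4200 UMIs. The members, the gene lists and the alternatives were chosen with earlier results of these data known. Given in full are, per list, 3 genes by mean CPM and 3 by size of log2 ratio among those with at least 100 UMIs, and all members are accounted for. UMI levels are not compared between genes. The calculations were tested on simulated data. Alternatives covered cell filters, clustering, scaling, fold, threshold and depth.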

Additional observations from a re-analysis of the deposited data

Results flagged for a closer look

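The share of dividing cells was higher in dexamethasone for granulocyte- and monocyte-like cells, by 5.17 percentage points (10.6% and 5.47%), and lower for microglia-like cells, by -1.55 points (20.5% and 22.0%). The pair was picked out because the single libraries moved in opposite directions in the 2 classes. The difference between the classes was not tested, and both intervals included 0. In control, the dividing granulocyte- and monocyte-like cells had UMIs from a median of 8 microglia markers, as many as dividing microglia-like cells. Under the alternatives the microglia-like interval lay below 0 in 6 of 10 and the granulocyte- and monocyte-like interval above 0 in 4 of 10.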

How the results depend on the processing

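No paired analysis was possible because each group is 1 library and the labels give no replicate numbers. Of the 9 results for which alternatives were run, only the erythroid-like share turned its direction. The microglia-like median log2 ratio (-0.22) was -0.35 with stricter cell filters, -0.34 with cell-cycle genes in the clustering, -0.30 at resolution 1.0, -0.28 without the 5% deepest cells, -0.24 without mitochondrial and ribosomal genes, -0.11 as a per-cell mean and -0.34 with the low-depth cluster counted. The 10 members past the size threshold became 23, 22, 20, 14, 13, 2 and 22 in that order, and 0 at a fold of 1.5. Within dividing cells the median (-0.057) was -0.11 with stricter filters, -0.090 with cell-cycle genes, -0.087 at resolution 1.0, -0.028 without the deepest cells, -0.15 unthinned, -0.019 with the marker gate and -0.093 with the low-depth cluster. The border-associated-macrophage-like share difference was -4.12 points with stricter filters. The granulocyte- and monocyte-like one was 14.0 points with the marker gate. The erythroid-like one (1.87) was 17.4 with stricter filters, -5.88 without the deepest cells, -11.5 unthinned and -6.56 thinned outside haemoglobin genes. The cause of these moves was not tested. The marker gate, the low-depth cluster, the haemoglobin setting and the 5 for the order of members were chosen after seeing the data. The microglia-like share difference was below 0 in 10 of 10 alternatives, the late part of dividing cells in 11 of 11, and the early median stayed above the late one in the order of members in 5 of 5. Depth limits the shares of the small classes, which rest on 4 to 43 dividing cells.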
